A study of Mus musculus with 198 samples.

Results

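Shallow bisulfite libraries of cerebral cortex from 8-week-old mice were examined in every cytosine context that the deposited table reports. The libraries were chosen by their labels alone (cortex, 8 weeks, shallow sequencing), which gave 29 of the 198 samples of the series. Heterozygous knockout mice, written hKO here, have 1 inactivated copy of Dnmt3a, and wild-type (WT) mice have both copies intact. Both genotypes were C57BL/6J animals of 8 weeks, with tissue dissected from littermates and frozen, per the labels' protocols. The hKO group held 7 animals (2 females and 5 males) in 10 libraries, and the WT group held 11 animals (5 females and 6 males) in 19 libraries. In 3 cases a library repeated, within 1e-08 of a fraction, the values of an earlier library of its animal: the second libraries of hKO animal 047-1 and of WT animal 047-2, and the third library of WT animal 602-2. Each such set was counted once, which left 9 hKO and 17 WT libraries, and the libraries of an animal were averaged, so that n counts animals. The labels do not name the deleted part of the gene, and genome-wide methylation does not check the deletion.

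DNMT3A is a de novo DNA methyltransferase. In mammalian neurons it deposits methylation outside CG dinucleotides during postnatal maturation, above all at CA, less at CT and least at CC. CG methylation is present from early development on and is copied at cell division by DNMT1, whose substrate is the hemimethylated CG site. Variants in human DNMT3A cause an overgrowth syndrome with intellectual disability. A bisulfite library reports as methylated every cytosine that escaped conversion, so unmethylated phage lambda DNA is added as a spike-in. The CA, CT, CC, CG and lambda values below are percentages of cytosines called methylated in that context over the whole library (mCA, mCT, mCC and mCG for the mouse genome).

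Each shallow library covered the genome at 0.01 to 0.03 equivalents, per the labels. How many cytosines were read is unknown, and no interval for counting error could be given. Lambda was given above 0 in 20 of the 26 distinct libraries, with a median of 0.476%. It was absent in 4 WT libraries (2 each of animals 046-1 and 306-1) and listed at exactly 0 in 2 hKO libraries, both of animal 046-2. These 6 libraries stood above the remaining library of their animal in all 4 contexts, as described with the repeat libraries. The genotype differences in the 4 contexts and in the CT to CA ratio are also given without them. In all 20 libraries with a lambda value, CC lay below lambda and CT lay above it.

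The first comparison asked which cytosine contexts carry less methylation when 1 Dnmt3a copy is lost. mCA and mCT were both lower in hKO cortex, with no overlap between the genotypes. The deposited mCC was lower with overlap, and mCG did not pass the test. CC lay below lambda in all 20 libraries with a lambda value. With lambda subtracted its difference was -0.00357 points and did not pass, so no loss of methylation at CC is read from it. As deposited, hKO cortex held 54.9% ± 1.89 of the WT level at CA, 60.7% ± 3.03 at CT, 73.8% ± 7.27 at CC and 95.1% ± 2.90 at CG (ratio of means ± SE, 7 hKO and 11 WT animals). The order of CA and CT among these shares depended on the background taken away, as given with their ratio.

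At CA, the main site of neuronal non-CG methylation, hKO animals ranged from 1.22% (animal 728) through a median of 1.38% to 1.45% (046-2), against a range of 2.20% (726) through 2.46% to 2.72% (622-2) in WT animals. The highest hKO animal thus lay well below the lowest WT animal. The difference was -1.10 percentage points (SE 0.0598), with p = 3.14e-05 by exact two-sided permutation of the animals, the lowest value possible with 7 against 11, or 6.28e-05 after Benjamini-Hochberg adjustment over the 4 contexts.

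At CT, the next most methylated non-CG context, hKO animals ranged from 0.452% (728) through 0.541% to 0.620% (046-2), against 0.754% (726) through 0.901% to 1.01% (622-2) in WT animals. Here too the lowest WT animal exceeded each of the 7 hKO animals. mCT averaged 0.541% ± 0.0613 in hKO cortex and 0.891% ± 0.0756 in WT cortex (SD, n = 7 and 11), a difference of -0.3497 points (SE 0.0325; exact permutation p = 3.14e-05, adjusted 6.28e-05). The same animals marked the ends of both contexts: 728 was lowest and 046-2 highest among hKO animals, and 726 lowest and 622-2 highest among WT animals.

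At CC, the least methylated context, hKO animals ranged from 0.194% (728) through 0.244% to 0.348% (694), against 0.263% (720) through 0.376% to 0.4596% (622-2) in WT animals. Only 4 of 7 hKO animals lay below every WT animal, while hKO animals 694, 046-2 and 047-1, at 0.348%, 0.347% and 0.272%, lay within the WT range. mCC averaged 0.267% ± 0.0599 in hKO cortex and 0.362% ± 0.0602 in WT cortex (SD, n = 7 and 11), a difference of -0.0948 points (SE 0.0290; exact permutation p = 0.00600, adjusted 0.00800). Lambda differed in the same direction without passing its test, with 0.439% ± 0.0456 in hKO and 0.527% ± 0.109 in WT libraries (SD, n = 7 and 11; difference -0.0883 points, exact permutation p = 0.0593). This call was unstable: lambda passed with the first-listed libraries, in males, with zeros kept and without any of 5 single animals, and in females the difference was 0.00691 points. With lambda subtracted in each library the CC difference was -0.00357 points and did not pass (exact permutation p = 0.909, adjusted 0.909). The CC difference was also smaller between the 2 pairs of animals whose titles share a number, at -0.0346 points for 046-2 minus 046-1 and -0.0330 points for 047-1 minus 047-2. Lambda was 0.489% in 046-2 against 0.471% in 046-1, each from its first library alone, and 0.509% in 047-1 against 0.544% in 047-2. Between the first libraries of 046-2 and 046-1 the CC difference was -0.0378 points. The part of lambda in the CC difference was not tested beyond this subtraction.

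At CG sites, hKO animals ranged from 63.7% (728) through 68.6% to 73.5% (694), against 58.7% (726) through 74.1% to 76.4% (701-1) in WT animals. The groups overlapped, and no hKO animal lay below the lowest WT animal. The difference of -3.51 points (SE 2.14) did not pass (exact permutation p = 0.161, adjusted 0.161 over the 4 contexts). WT animal 726 decided this: without it the difference was -4.80 points and passed (exact permutation, adjusted p = 0.0235 over the 4 contexts). The direction differed in a subset of animals that holds 726. Among animals titled by a number alone, 3 hKO and 3 WT, mCG averaged 67.4% in hKO and 66.7% in WT cortex. Those 3 WT animals were 695, 720 and 726, at 75.5%, 66.0% and 58.7%, and this subset was not compared without 726. Among animals titled by a number with a dash it averaged 68.5% in 4 hKO and 73.4% in 8 WT animals. Permuting genotype within these title formats gave -2.85 points (exact permutation p = 0.240). What the formats stand for is not stated in the labels.

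**Figure D1:**
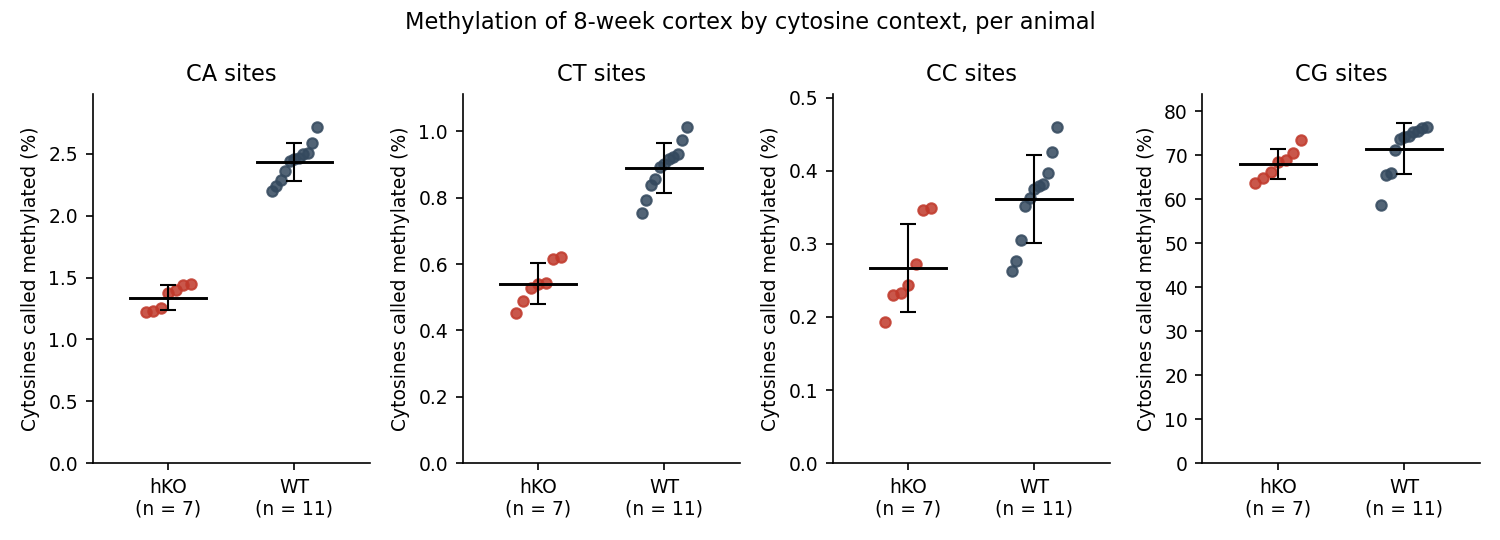
Percentage of cytosines called methylated at CA, CT, CC and CG sites in 8-week cortex, 1 point per animal (hKO, n = 7; WT, n = 11), with the mean and SD as bars; each axis starts at 0. At CA (1.22% to 1.45% in hKO, 2.20% to 2.72% in WT) and CT the genotypes do not overlap, whereas at CC and CG they do.

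Whether CT and CA lost equal shares was tested with the ratio of mCT to mCA in each library, averaged per animal. As deposited, this ratio was higher in hKO cortex, ranging from 0.371 (728) through 0.398 to 0.429 (046-2), against 0.343 (726) through 0.369 to 0.376 (701-1) in WT cortex. Of the 7 hKO animals 6 lay above every WT animal, 728 being the exception. The mean was 0.404 ± 0.0223 in hKO and 0.365 ± 0.0111 in WT cortex (SD, n = 7 and 11), a difference of 0.0384 (SE 0.00907; exact permutation p = 0.000189, adjusted 0.000251 over 4 ratios). The ratio of mCC to mCA was likewise higher, 0.198 ± 0.0341 in hKO against 0.1475 ± 0.0163 in WT cortex (SD, n = 7 and 11; exact permutation p = 0.000157, adjusted 0.000251). That difference turned to -0.1197 with lambda subtracted (exact permutation, adjusted p = 0.00155) and was 0.0840 between the 2 pairs that share a title number. CC lay below lambda in all 20 libraries with a lambda value. The lambda-subtracted ratio was therefore negative in each of them and cannot be read as a share of methylation. The ratio of mCG to mCA was 51.026 ± 2.51 in hKO and 29.4 ± 1.48 in WT cortex (SD, n = 7 and 11), with all 7 hKO animals above all WT animals (exact permutation p = 3.14e-05, adjusted 0.000126).

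The direction of the CT to CA difference depended on the background that was taken away. With CC subtracted from both contexts, the ratio was 0.256 ± 0.00902 in hKO and 0.255 ± 0.00829 in WT cortex (SD, n = 7 and 11). Those ranges, 0.243 to 0.270 in hKO and 0.245 to 0.275 in WT animals, lay almost on top of each other, and the difference of 0.000722 (SE 0.00423) did not pass (exact permutation p = 0.865, adjusted 0.865). On that scale mCA above CC was 1.07% ± 0.0698 in hKO and 2.07% ± 0.0961 in WT cortex, and mCT above CC was 0.274% ± 0.0209 in hKO and 0.529% ± 0.0219 in WT cortex (SD, n = 7 and 11). The hKO level was then 51.7% ± 1.46 of WT at CA and 51.8% ± 1.63 at CT (± SE). CC itself averaged 0.267% in hKO and 0.362% in WT cortex, so this step took unequal amounts from the genotypes. Whether CC holds background alone was not tested, and the near-equal shares are read on that scale only. With lambda subtracted the ratio turned round, to 0.102 ± 0.0574 in hKO against 0.187 ± 0.0280 in WT cortex (SD, n = 7 and 11; exact permutation p = 0.000723, adjusted 0.00145). The hKO level was then 47.0% of WT at CA and 27.1% at CT. Lambda took away most of the hKO CT signal. It left 0.0942% ± 0.0641 in hKO and 0.347% ± 0.0530 in WT cortex (SD, n = 7 and 11). Yet the spike-in read higher than CC wherever both were given. At birth it also read higher than mCA, mCT and mCC in each of 8 animals. Whether subtracting it takes away too much was not tested. Neither the turned ratio nor the 27.1% share is therefore read as an order of the losses at CA and CT. With the mean birth level of each genotype subtracted, a step added after the data had been seen, the ratio was 0.216 ± 0.0409 in hKO and 0.275 ± 0.0176 in WT cortex (SD, n = 7 and 11; exact permutation p = 0.000597). The birth means, from 3 hKO and 5 WT animals, differed between the genotypes and were treated as fixed in that test. Its p-value therefore leaves out their error. The lower mCA and mCT of hKO cortex held under every one of these subtractions that was applied to them, whereas the ordering of the CT to CA ratio did not.

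**Figure D2:**
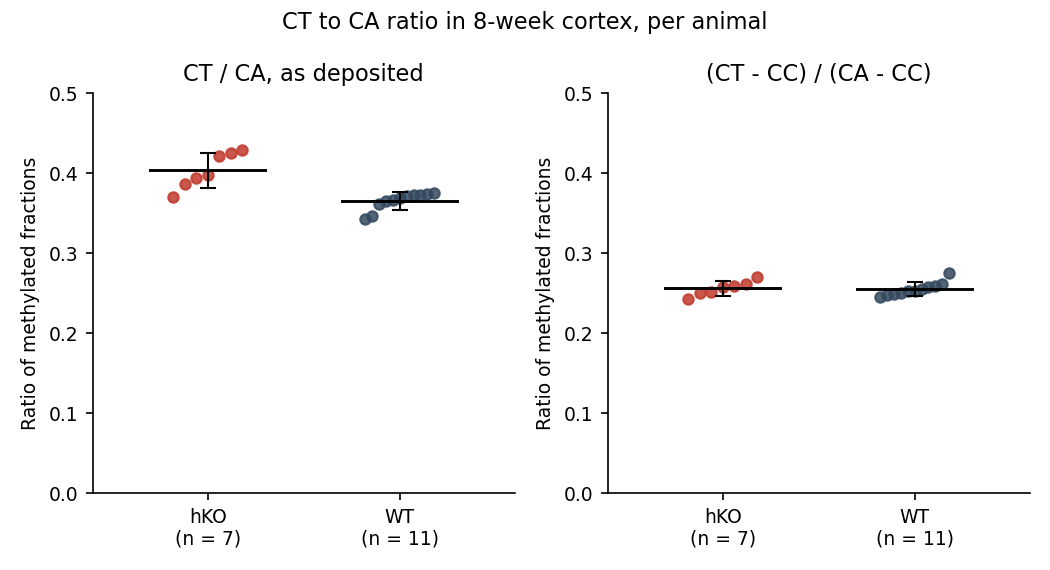
Ratio of mCT to mCA in 8-week cortex, 1 point per animal (hKO, n = 7; WT, n = 11), as deposited on the left and with the CC level of each library subtracted from both contexts on the right; bars give the mean and SD. The means are 0.404 in hKO and 0.365 in WT as deposited, and 0.256 in hKO and 0.255 in WT with CC subtracted.

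Repeat libraries showed how far library-to-library spread reaches. A total of 5 animals had 2 or 3 distinct libraries (13 in all): hKO animal 046-2 and WT animals 046-1, 306-1, 306-4 and 602-2. mCA of hKO animal 046-2 was 1.28%, 1.55% and 1.52% in the order of its library numbers. Those of WT animal 046-1 held 2.26%, 2.62% and 2.62%, and those of WT animal 306-1 held 2.60%, 2.20% and 2.59%. In each of these 3 animals 1 library was low and the other two lay close together above it. The libraries of WT animal 602-2 held 2.65% and 2.26%, and those of WT animal 306-4 held 2.52% and 2.50%, the only close pair.

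The low library was the one with a lambda value above 0 in 046-2, 046-1 and 306-1. Libraries without a usable lambda value exceeded it 1.20-fold in 046-2, 1.16-fold in 046-1 and 1.18-fold in 306-1 at CA. At CT the excess was 1.15-fold in 046-2 and 1.16-fold in each of the other two. At CC it was 1.27-fold, 1.22-fold and 1.32-fold, in the same order of animals, and at CG 1.06-fold, 1.07-fold and 1.06-fold. All 4 contexts thus moved together, most at CC and least at CG. In 602-2, where both libraries had a lambda value, the library with higher mCA also had the higher lambda, 0.769% against 0.482%. The part of lambda in these shifts was not tested.

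For mCA the spread between repeat libraries was larger than that between animals. The pooled SD between repeat libraries was 0.198 points at CA, against SDs between animals of 0.102 points in hKO and 0.152 in WT cortex. The genotype difference in mCA was 5.55 times this within-animal SD and 2.73 times the widest gap between repeats of 1 animal (0.403 points, 306-1). At CT the within-animal SD was 0.0711 points, and the genotype difference was 4.92 times as large. At CC it was 0.0531 points and at CG 2.43 points, and there the widest gaps between repeats, 0.125 points in 602-2 and 5.05 points in 046-1, exceeded the genotype differences. The CT to CA ratio varied far less in relative terms. In WT animals with repeats it moved by at most 0.00561 between libraries of the same animal, and in hKO animal 046-2 by 0.0284. The genotype difference in this ratio was 5.18 times its within-animal SD. It was only 1.35 times the widest gap between repeats, that of 046-2, against 2.73 times for mCA and 2.35 times for mCT. On a relative scale the within-animal SD was 9.23% for mCA, 8.45% for mCT, 14.9% for mCC, 3.35% for mCG and 1.75% for the CT to CA ratio.

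Libraries with the same number could be set side by side for 046-2 and 046-1. The mCA difference, hKO minus WT, was -0.978 points in the first, -1.07 in the second and -1.10 in the third libraries. The mCG difference was -2.26, -3.76 and -3.26 points in that order, and the CT difference -0.267, -0.325 and -0.316 points. For 047-1 minus 047-2 the differences were -0.992 points at CA, -0.310 at CT and -2.67 at CG. The matched comparisons had the same sign in these 3 contexts, but they came from only 2 pairs of animals. Those of 046-2 and 046-1 are repeat libraries of a single pair. The shared title number has no meaning stated in the labels. When only libraries with a lambda value were used, an alternative added later, the genotype differences over all animals were -1.08 points at CA, -0.341 at CT, -0.0918 at CC and -3.30 at CG (exact permutation, adjusted p = 6.28e-05, 6.28e-05, 0.00700 and 0.175), and that of the CT to CA ratio was 0.0400.

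**Figure D3:**
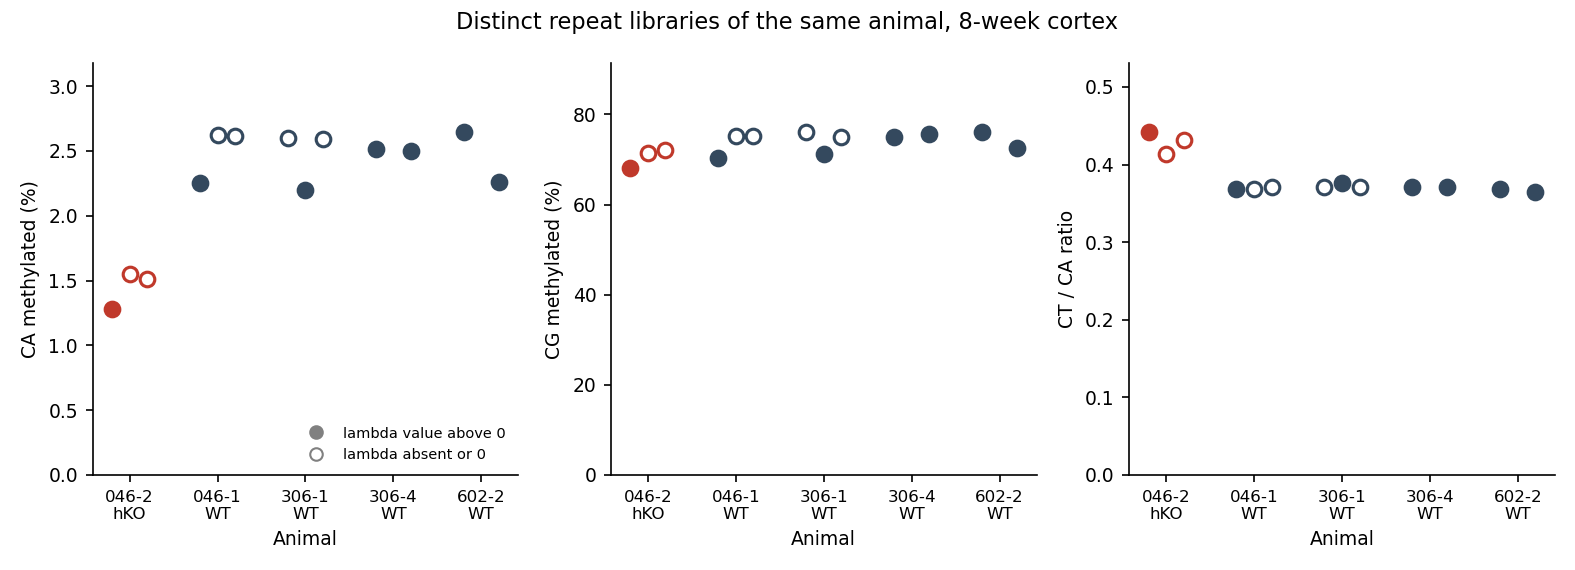
Distinct repeat libraries of the 5 animals that had them, 1 point per library in the order of their labelled numbers, hKO animal 046-2 on the left and 4 WT animals to its right; open points mark libraries whose lambda value is absent or 0. mCA of 1 animal spans up to 0.403 points (2.20% to 2.60% in WT animal 306-1) and mCG up to 5.05 points, while the CT to CA ratio of each WT animal stays within 0.00561. That ratio spans 0.0284 in hKO animal 046-2.

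Within a genotype, animals with more mCA also had more methylation in the other contexts. In total 10 relations were computed, 5 per genotype, and adjusted together; no value was pooled over genotypes, since these separate in mCA. mCT followed mCA closely, with Pearson's r = 0.908 in hKO (n = 7, exact permutation p = 0.000397, adjusted 0.00132; Spearman's rho = 0.964, exact permutation p = 0.00278) and r = 0.970 in WT cortex (n = 11, permutation p = 1.00e-05, the smallest that 100000 resamples give, adjusted 1.00e-04; rho = 0.991). Without the 2 animals farthest from the median mCA, r was 0.788 in hKO and 0.946 in WT cortex. mCC followed mCA with r = 0.742 in hKO (n = 7, exact permutation p = 0.0641, adjusted 0.0801; rho = 0.857, exact permutation p = 0.0238, adjusted 0.0397) and r = 0.958 in WT cortex (n = 11, permutation p = 2.00e-05, adjusted 1.00e-04; rho = 0.964). Those values were 0.524 and 0.926 without the 2 farthest animals.

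mCG followed mCA with r = 0.765 in hKO (n = 7, exact permutation p = 0.0532, adjusted 0.0760; rho = 0.857) and r = 0.801 in WT cortex (n = 11, permutation p = 0.00194, adjusted 0.00485; rho = 0.827, permutation p = 0.00281), and with 0.445 and 0.746 without the 2 farthest animals. Lambda and mCA were related in WT cortex (r = 0.700, n = 11, permutation p = 0.0164, adjusted 0.0327; rho = 0.591, permutation p = 0.0608, adjusted 0.0806), but r was 0.479 without animals 622-2 and 726. These 2 lay farthest from the median mCA, and leaving them out also narrows the range. How far the relation rests on them was not tested. In hKO cortex lambda and mCA had r = -0.0248 (n = 7, exact permutation p = 0.946; rho = 0.179, exact permutation p = 0.713). For lambda and mCC, r was 0.367 in hKO (n = 7, exact permutation p = 0.418; rho = 0.286) and 0.682 in WT cortex (n = 11, permutation p = 0.0214, adjusted 0.0357; rho = 0.582, permutation p = 0.0645), with 0.861 and 0.563 without the 2 animals farthest in mCC. Contexts of 1 library share its conversion and depth, so these relations do not separate animals from libraries.

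**Figure D4:**
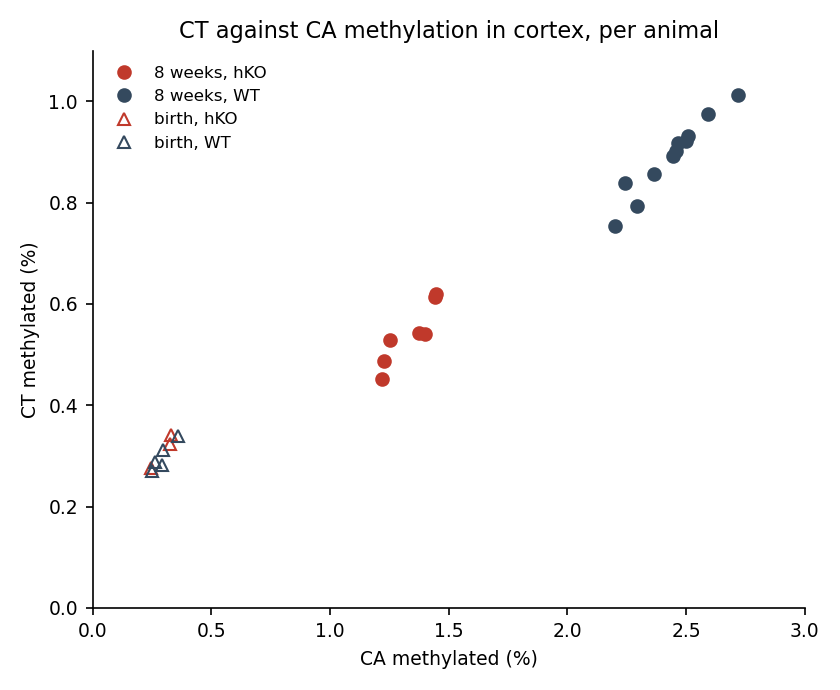
mCT against mCA in cortex, both in percent, 1 point per animal; filled circles are 8-week animals (7 hKO, 11 WT) and open triangles animals at birth (3 hKO, 5 WT). The 8-week hKO animals (mCA 1.22% to 1.45%) lie between the animals at birth and the 8-week WT animals (2.20% to 2.72%), with r = 0.908 within hKO and 0.970 within WT cortex at 8 weeks.

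Sex did not detectably change the genotype difference in these contexts. Female hKO animals averaged 1.24% mCA (1.23% and 1.25%), against 2.37% ± 0.111 in 5 WT females (SD), and male hKO animals averaged 1.38% ± 0.0931 against 2.48% ± 0.173 in WT males (SD, n = 5 and 6). The genotype difference was -1.13 points in females and -1.11 in males at CA, and -0.359 and -0.356 at CT. At CG it was -3.68 points in females and -3.93 in males. Exact permutation of sex within genotype gave p between 0.662 and 0.959 for mCA, mCT, mCC, mCG and the CT to CA ratio, with an adjusted p = 0.959 for each of these 5. mCA averaged higher in males than in females of both genotypes, and such a sex difference itself widens this permutation test. Only 2 hKO females were available, which also limits this comparison.

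Cortex at birth and at 20 weeks showed where the 8-week values stand. At birth CA, CT and CC were nearly level, and all 8 animals lay below their own lambda value (0.419% to 0.473%) in each of these contexts: mCA, mCT and mCC averaged 0.3003%, 0.314% and 0.291% in 3 hKO animals, and 0.292%, 0.298% and 0.275% in 5 WT animals. By 8 weeks mCT had risen by 0.227 points in hKO and by 0.592 points in WT cortex (exact permutation p = 0.00833 and 0.000229, the smallest each design allows, adjusted 0.0165 and 0.000916 over 12 comparisons), and every 8-week animal lay above every animal at birth of its genotype. mCA had risen by 1.04 points in hKO and 2.14 points in WT cortex with the same p-values (exact permutation). mCC had risen by 0.0868 points in WT cortex (SE 0.0204; exact permutation p = 0.00962, adjusted 0.0165), where 9 of 11 animals exceeded every animal at birth. In hKO cortex mCC differed from birth by -0.0247 points (SE 0.0279; exact permutation p = 0.533, adjusted 0.582). Lambda differed from birth by -0.0330 points in hKO (exact permutation p = 0.242, adjusted 0.322) and by 0.0904 points in WT cortex (exact permutation p = 0.0948, adjusted 0.142), again in the direction of CC.

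mCG at 8 weeks differed from birth by -2.28 points in hKO and 0.293 points in WT cortex (exact permutation p = 0.333 and 0.918, adjusted 0.400 and 0.918). The CT to CA ratio at birth, 1.05 in hKO and 1.03 in WT cortex, was a ratio of values that both lay below lambda, and no methylation above that background is read from it. At 8 weeks the deposited ratio differed from it by -0.649 in hKO and by -0.662 in WT cortex (exact permutation p = 0.00833 and 0.000229, adjusted 0.0165 and 0.000916). The change of the genotype difference between birth and 8 weeks was -1.11 points for mCA and -0.365 points for mCT. Exact permutation of age within genotype gave p = 0.0812 and 0.0389 (adjusted 0.203 and 0.195 over 10 comparisons), a test that the large age change itself widens. With residuals of a model of genotype and age permuted instead, likewise added later, both passed (permutation p = 1.00e-05 each, the smallest that 100000 resamples give, adjusted 5.00e-05). For mCC the change was -0.111 points (exact permutation p = 0.0239, adjusted 0.195).

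At 20 weeks, as deposited, hKO cortex stood at 54.9% of WT for CA, 65.7% for CT, 90.4% for CC and 96.0% for CG (3 animals of each genotype). With CC subtracted these shares were 48.9% at CA and 49.7% at CT, and with lambda subtracted 43.9% and 25.7%, both added later, so the order of CA and CT depended on the background here too. mCA was 1.30% ± 0.0917 in hKO and 2.36% ± 0.0943 in WT cortex (SD, n = 3 each). mCT was 0.568% ± 0.0239 in hKO and 0.865% ± 0.00854 in WT cortex, and mCC was 0.307% ± 0.0222 in hKO and 0.340% ± 0.0137 in WT cortex (SD, n = 3 each). The CT to CA ratio at 20 weeks was 0.439 ± 0.0132 in hKO and 0.367 ± 0.0113 in WT cortex (SD, n = 3 each). None of the genotype differences changed detectably between 20 and 8 weeks: exact permutation gave adjusted p = 0.951 for mCA, 0.605 for mCT, 0.458 for mCC, 0.951 for mCG and 0.203 for the ratio, the changes being -0.0324, -0.0531, -0.0622 and -0.738 points and -0.0340.

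**Figure D5:**
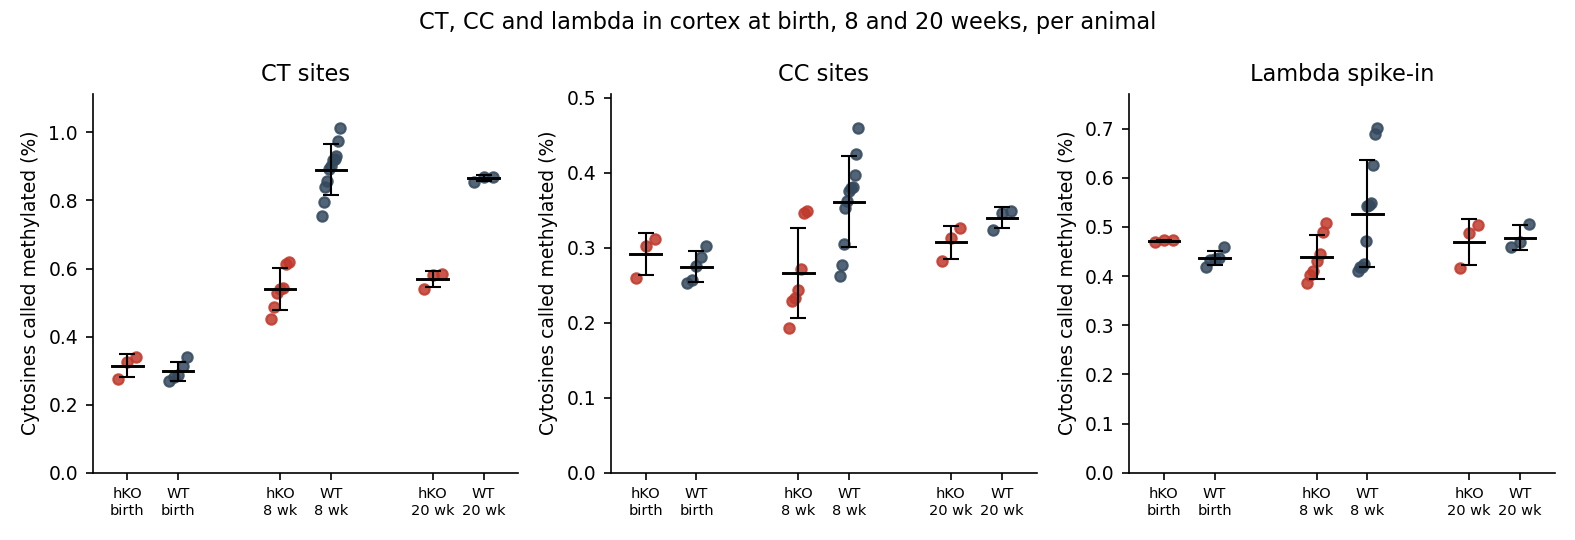
Percentage of cytosines called methylated at CT sites, at CC sites and in the lambda spike-in, in cortex at birth (3 hKO, 5 WT), 8 weeks (7 hKO, 11 WT) and 20 weeks (3 of each), 1 point per animal with the mean and SD as bars. mCT separates the genotypes at 8 and 20 weeks but not at birth, while mCC and lambda overlap at 8 weeks.

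A set of 6 of the 18 animals also had deep cortex libraries, labelled with 6.4 to 7.8 genome equivalents, for which the deposited table gives CA and CG fractions per gene. Averaged over 21302 genes measured in all 8 deep libraries, mCA was 1.20%, 1.15% and 1.21% in hKO animals 046-2, 047-1 and 694, against 2.05%, 2.11% and 2.07% in WT animals 046-1, 047-2 and 695. The shallow genome-wide values of the same animals were 1.45%, 1.25% and 1.44% in hKO and 2.50%, 2.24% and 2.44% in WT cortex, in the same order. Both sets separated the genotypes without overlap, and hKO cortex held 57.6% of WT in the shallow and 57.1% in the deep libraries of these animals. The animals of a genotype did not keep their order: 047-2 had the lowest shallow but the highest deep mCA of the 3 WT animals. Over 21060 genes mCG was 71.9%, 74.1% and 73.5% in these hKO animals and 74.0%, 76.7% and 75.1% in these WT animals. Their shallow mCG was 70.5%, 68.6% and 73.5% in hKO and 73.6%, 71.2% and 75.5% in WT cortex, so that 047-1 and 047-2 ranked lowest of their genotype in the shallow and highest in the deep libraries. Whole-genome percentages and means over genes are different quantities, and no test was made between them.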

How the data were processed

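Whole-genome bisulfite libraries were summarised by the authors as fractions of methylated cytosines, 1 deposited fraction per library for CA, CT, CC, CG and lambda, and 1 deposited fraction per gene in the deep libraries. The tools were BS-Seeker2 and bedtools and the build mm9, per the submitters' processing notes; versions are not given in the sources used here. Fractions were multiplied by 100, with no coverage filter or weight, since no counts are given. The 8 columns of group means by the authors were not used.

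Groups, sex and age came from the labels and animals from the titles. Members, ratios and tests were chosen with earlier results of these data known. Lambda values of exactly 0 were treated as missing. Differences in means over animals were tested by exact two-sided permutation, interactions by exact permutation of sex or age within genotype, and correlations exactly for 7 animals or with 100000 resamples for 11 (seed 1), with Benjamini-Hochberg adjustment per family and a threshold of 0.05. The permutation code was tested on simulated data. Python 3.11.15, numpy 2.4.6, pandas 2.3.3, scipy 1.17.1 and matplotlib 3.10.9 were used. No genes are named, by a rule set from the table's content. The p-values of tests over animals measure the spread between these animals, which includes the spread between libraries. Where each library was its own sample, repeat libraries of an animal were treated as independent.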

Additional observations from a re-analysis of the deposited data

Results flagged for a closer look

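The genotype difference at 8 weeks differed from that at birth for mCA, by -1.11 percentage points (-1.10 at 8 weeks and 0.00814 at birth), and for mCT, by -0.365 points (-0.3497 at 8 weeks and 0.0157 at birth). Both are listed here because the difference itself passed when residuals of a model of genotype and age were permuted (permutation, adjusted p = 5.00e-05 each), a test added after the data had been seen; the planned exact permutation of age within genotype did not pass (adjusted p = 0.203 and 0.195). At 8 weeks the genotypes did not overlap in either context. No hKO animal stood apart from the other 6 by Dixon's criterion in any of the 9 measures, and the 11 WT animals were not examined by it.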

How the results depend on the processing

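Of 819 alternative values, 753 kept their direction and, where tested, their side of the threshold. The mCA and mCT differences did so under every alternative that gave a test except females alone, where 2 against 5 animals gave -1.13 and -0.359 points (exact permutation, adjusted p = 0.0952 each, the lowest possible unadjusted p being 0.0476). Females alone also lost mCC (-0.0886 points) and the ratios CT to CA (0.0446), CC to CA (0.0599) and CG to CA (24.1). With each library as its own sample, mCG passed (-3.88 points, permutation adjusted p = 0.0453), and the CT to CA ratio above CC turned to -0.00113. With lambda subtracted, mCC was lost (-0.00357 points), and CT to CA and CC to CA turned to -0.0851 and -0.120. CC minus lambda was negative in every library with a lambda value. With the birth level subtracted, CT to CA turned to -0.0594. A replicate block by shared title number (2 pairs, no test) moved mCC to -0.0338 points, CT to CA to 0.0543, CC to CA to 0.0840 and CT to CA above CC to -0.00964; whether these numbers pair the animals is not stated. The lambda difference passed with the first-listed libraries (-0.119 points), in males (-0.151) and with zeros kept (-0.135), and turned to 0.00691 in females. The residual test made the change from birth pass for mCA (-1.11 points) and mCT (-0.365). On the natural log scale the change from 20 weeks in mCA turned to 0.00112.

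For the genotype difference by sex, libraries as samples turned CC to -0.0217 points, CG to -1.38 points and CT to CA to -0.000849, and CC subtraction turned CT to CA to -0.00216; none passed before or after.

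Leaving out each animal gave -1.12 to -1.07 points for mCA, -0.363 to -0.335 for mCT, -0.108 to -0.0826 for mCC and -4.80 to -2.79 for mCG, which passed without WT animal 726 only. Ratios ran from 0.0341 to 0.0439 for CT to CA, from 0.0435 to 0.0573 for CC to CA, from 20.996 to 22.2 for CG to CA and from -0.00164 to 0.00297 for CT to CA above CC. Lambda ran from -0.09996 to -0.0708 points and passed without hKO animal 047-1 or any of WT animals 266-1, 306-1, 720 and 726. The sex comparison ran from -0.0733 to 0.0301 (CA), -0.0292 to 0.0274 (CT), -0.00275 to 0.0395 (CC), -1.55 to 3.00 (CG) and -0.00361 to 0.0211 (ratio). The change from birth ran from -0.0160 to 0.0523 for the ratio, the change from 20 weeks from -0.0853 to 0.0219 (CA) and -2.02 to 0.180 (CG), and WT mCG at 8 weeks minus birth from -0.399 to 1.58 points. Within hKO, r of mCA and lambda without the 2 farthest animals was -0.560. The age comparisons within each sex were not run, because too few animals of a sex remained. The read depth of single libraries is unknown, so its part in the spread between repeats, largest in relative terms at CC, was not tested.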
